A study of Mus musculus with 3 samples.

Results

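The neurons described here were 74 of 2060 cells of the myenteric plexus of *Ednrb*-/- mice, each with at least 3 of the 9 genes *Nmu*, *Nog*, *Cysltr2*, *Gpr149*, *Edn1*, *Cdh8*, *Dapk2*, *Layn* and *Grin3a* above 0. These 9 rule genes were picked from earlier results of the same data, and their levels below are therefore a description without a test. The other 1986 cells served as the comparison within each mouse.

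Intrinsic primary afferent neurons are the sensory neurons of the gut wall. They respond to stretch, to chemical stimuli of the mucosa and to mediators of immune cells, and they drive the reflexes that motor neurons and interneurons carry out. In the mouse they are commonly recognised by calcitonin gene-related peptide, and one class of them releases neuromedin U, a peptide that acts on immune cells of the gut. The receptor gene *Cysltr2*, for cysteinyl leukotrienes, and the secreted BMP antagonist Noggin, encoded by *Nog*, have been used to tell such neurons from other enteric neurons.

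The cells came from the longitudinal muscle with attached myenteric plexus (LMMP) of the small intestine of 3 mice at postnatal day 14, with 1 10x Genomics library per mouse. All mice were homozygous for the null allele *Ednrb* tm1Ywa, were labelled C57BL/6 and carried *Wnt1*-Cre with a GCaMP5-tdTomato reporter, which marks every neural crest-derived cell and not neurons alone. The paper lists stocks of mixed strain background for the *Ednrb* allele and for the reporter. Cells positive for tdTomato were sorted, and the table analysed here holds the cells that the authors took to be neurons. There was a single condition, wild-type cells were not analysed here, and no value below can be ascribed to the loss of *Ednrb*.

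Mouse 1 contributed 32 chosen cells of 354 (9.04%, exact Clopper-Pearson 95% interval 6.27% to 12.52%). Mouse 2 contributed 14 of 1050 (1.33%, 0.731% to 2.23%), and mouse 3 contributed 28 of 656 (4.27%, 2.85% to 6.11%). The mean share was 4.88% ± 3.89 (SD, n = 3), so the spread between mice was wide compared with the mean, and the intervals cover counting error only. The median number of UMIs (molecular barcodes, each counting a captured transcript once) was 5157.5 in chosen and 3653 in other cells of mouse 1, 10097 and 9599.5 in mouse 2, and 13128.5 and 9394.5 in mouse 3. A deeper cell meets the rule more easily. When every cell was thinned to 3000 UMIs, 49 of the 1882 cells with that depth met the rule, at 8.70%, 1.01% and 2.45% in mice 1, 2 and 3, and the order of the mice was the same. With 2 UMIs required for a gene to count, 38 cells met it. Of the 10 cells that a doublet caller marked, 2 were chosen cells. The caller marked 0.485% of all cells at an expected rate of 6%, so its low count says little about doublets among the chosen cells. Libraries shared 2 cell barcodes, and 0 chosen cells carried one of them.

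The library of mouse 1 stood apart from the other two. In a clustering without the rule genes, its 354 cells fell into 3 clusters, of 248, 58 and 47 of its cells, apart from 1 cell, and those clusters held 1, 6 and 19 cells of mice 2 and 3 together. Values are therefore given per mouse, and counts of genes also without mouse 1.

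**Figure D1:**
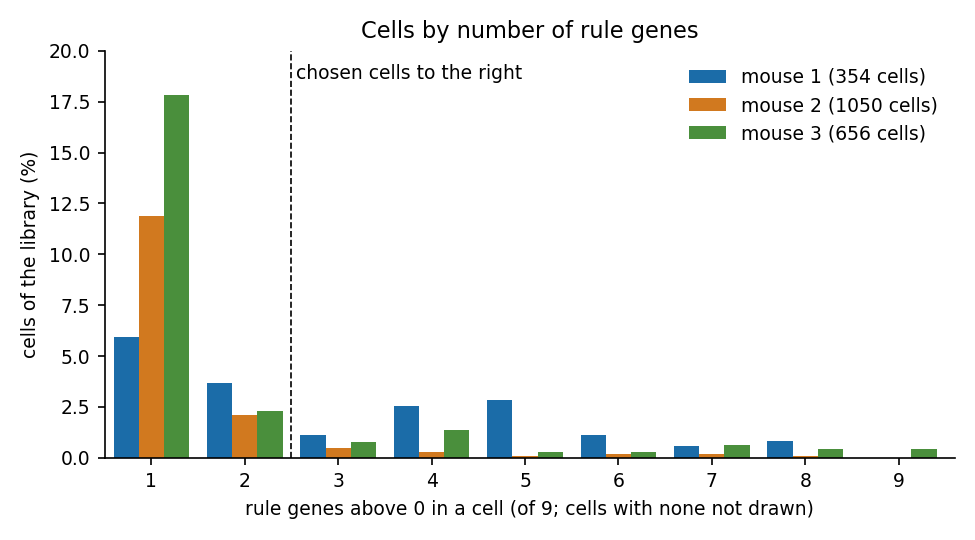
Share of the cells of each mouse (vertical axis, percent of the library) by the number of the 9 rule genes above 0 (horizontal axis), with cells that had none left out. The dashed line marks the limit of the rule, and the bars to its right add up to 9.04%, 1.33% and 4.27% in mice 1, 2 and 3.

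The number of rule genes per cell did not stop at the limit of the rule. There were 1673 cells with none of the 9 genes, 263 with 1, 50 with 2, 14 with 3, 21 with 4 and 39 with 5 or more, among them 3 cells of mouse 3 with all 9. The chosen cells had a median of 5 rule genes. Just outside the limit, the 50 cells with 2 rule genes held *Calcb*, which the rule did not use, in 50% of cells, and just inside it the 14 cells with 3 rule genes held it in 100%. *Gal*, the gene of the inhibitory neuron peptide galanin, lay at 1530, 7450 and 5366 CPM (UMIs per 1000000, over the summed UMIs of the cells of a mouse) in the cells with 2 rule genes of mice 1, 2 and 3, and at 5797, 9151 and 3993 in the cells with 3. In cells with 5 or more rule genes *Gal* lay at 27.3, 139 and 581 CPM. *Gal* was thus high on both sides of the limit and low in the cells well inside it.

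*Nmu*, which encodes neuromedin U, was present in 66 of the 74 chosen cells (89.2%) and in 6.75% of other cells. Its level was 753, 1071 and 846 CPM in the chosen cells of mice 1, 2 and 3 against 2.96, 7.64 and 13.3 CPM in their other cells, and the chosen cells held 77.8% of all *Nmu* UMIs of the table. *Nog* was present in 56 chosen cells (75.7%), at 279, 288 and 307 CPM against 3.70, 2.45 and 3.46. The chosen cells of the 3 mice lay close together for *Nog*, and in other cells *Nmu* was lowest in mouse 1 and highest in mouse 3. *Edn1*, which encodes the peptide ligand endothelin, was present in 45 chosen cells (60.8%), at 485, 137 and 170 CPM against 11.1, 1.37 and 1.15, so mouse 1 was the highest in chosen and in other cells. *Gpr149*, an orphan G protein-coupled receptor, lay at 336, 240 and 206 CPM in 67.6% of chosen cells. *Grin3a*, an NMDA receptor subunit, lay at 262, 172 and 179 CPM in 71.6% of them. *Cysltr2* lay at 160, 165 and 113 CPM in 52.7%.

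The remaining 3 rule genes were seen in fewer cells. *Layn*, a hyaluronan-binding membrane protein, was found in 41.9% of the chosen cells, *Cdh8*, a classical cadherin, in 27.03%, and *Dapk2*, a calmodulin-regulated kinase, in 24.3%. Between 0.604% and 6.75% of other cells held any one of the 9 genes. In a cluster of 64 smooth muscle-like cells, which should lack neuronal genes and had a median of 3538.5 UMIs, the shares ran from 0% to 3.13%, with 0 cells for *Nmu*, *Gpr149*, *Layn* and *Grin3a*, and 0 of its cells were chosen.

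**Figure D2:**
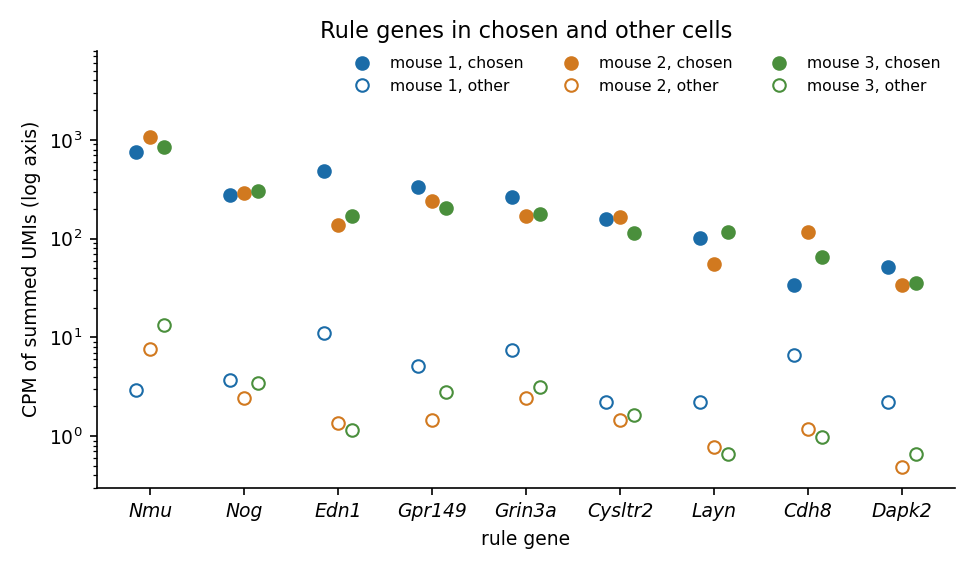
Level of each rule gene (CPM over the summed cells, log axis) in chosen (filled) and other cells (open) of the 3 mice. For each gene all 3 filled points lie above all 3 open points, as the choice of the cells by these genes requires.

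Because each gene helped to choose the cells, every rule gene was also read in the cells that the other 8 genes alone put over the limit. On that reading *Nmu* was found in 56 of 64 cells (87.5%) against 7.21% of the rest, *Nog* in 49 of 67 (73.1%) against 2.61%, and *Cysltr2* in 36 of 71 (50.7%) against 1.56%. *Edn1* was found in 41 of 70 (58.6%) against 1.56%. *Dapk2* and *Cdh8* were again the lowest, in 18 of 74 (24.3%) and 17 of 71 (23.9%). The 9 genes were selected together, so these shares are a description too. *Nmu* and *Nog* shared 54 cells, of which 50 were chosen, *Nmu* and *Grin3a* shared 52, and *Edn1* and *Cysltr2* shared 25, all of them chosen.

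Promoter windows were read because these genes occurred together. RefSeq windows of 250 bases before the start (GRCm38.p6) were at hand for 6 of the 9 rule genes, namely *Edn1*, *Layn*, *Dapk2*, *Cysltr2*, *Cdh8* and *Nmu*. The 6-letter E-box CANNTG, the class of site that basic helix-loop-helix factors bind, occurred on either strand in 4 of the 6, against 66.0% of 27025 promoters of the same length. The homeodomain core TAATTA was in 0 of the 6 (4.90% of promoters) and TATAAA in 0 (13.0%). The windows of *Nmu* (chr5:76363778-76364027, minus strand) and *Cysltr2* (chr14:73049115-73049364, minus strand) are printed as the genes that name these neurons, with CANNTG in capitals. The matches begin 236, 187 and 57 bases before the start of *Nmu* and 68 bases before that of *Cysltr2*.
Nmu: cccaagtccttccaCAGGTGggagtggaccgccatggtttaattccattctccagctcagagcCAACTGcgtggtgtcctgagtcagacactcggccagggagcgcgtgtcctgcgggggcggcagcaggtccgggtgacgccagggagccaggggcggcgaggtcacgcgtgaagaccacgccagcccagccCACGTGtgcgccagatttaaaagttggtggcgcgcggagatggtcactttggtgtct
Cysltr2: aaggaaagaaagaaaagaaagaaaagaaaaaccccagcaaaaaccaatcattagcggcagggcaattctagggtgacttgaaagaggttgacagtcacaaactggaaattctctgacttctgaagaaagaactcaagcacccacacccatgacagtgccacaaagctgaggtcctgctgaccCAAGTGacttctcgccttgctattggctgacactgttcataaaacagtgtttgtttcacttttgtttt
These are matches of letters and not sites of binding. The share among the rule genes was close to that of all promoters.

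For genes outside the rule, UMIs were summed over the chosen and over the other cells of each mouse and log2(CPM + 10) was compared with limma, with the mouse as a block. In sums of this kind, fewer cells with a transcript and less of it per cell cannot be told apart. Of 13022 genes tested, 301 were higher in the chosen cells (2.31%) and 231 were lower (1.77%) at a Benjamini-Hochberg adjusted p below 0.05. All 532 differed in the same direction in all 3 mice, and 292 of the 301 lay higher in the chosen cells of each mouse than in the other cells of any mouse. With 3 pairs a gene can hardly be called unless its differences agree, so these counts follow from the calls and add nothing to them. Neither count was taken over genes that were not called. The median difference over all genes was -0.12 on the log2 scale. The shares of 2.31% and 1.77% over all genes are the measure for the counts of list members below. The calls rest on mouse 1: without it limma called 0 genes in either direction, with 652 higher and 1325 lower at an unadjusted p below 0.05. Mouse 1 had the most chosen cells, and it also had the most RNA of smooth muscle, at a sum of 8478 CPM over 10 markers in other cells against 1756 and 1147 in mice 2 and 3. Of the 64 smooth muscle-like cells, all of them among the other cells, mice 1, 2 and 3 held 58, 4 and 2. In mouse 1 *Acta2*, a smooth muscle marker, lay at 8596 CPM in those cells and at 1860 over all other cells. The part of such cells and of that RNA in the calls was not tested beyond 1 comparison. It was limited to 177 other cells with few glial and smooth muscle markers, and 23 genes were then higher in the chosen cells and 6 lower. The chosen cells were not limited in that way, so the markers themselves cannot be read in it.

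The list of 26 genes tied to intrinsic sensory neurons had 24 members tested, of which 12 were higher in the chosen cells, 0 were lower and 12 did not pass. Over all genes 2.31% were higher and 1.77% lower. The median difference of the list was 1.497 against -0.12 over all genes, but the list was written with earlier results of these data known. *Calcb*, which encodes the beta form of calcitonin gene-related peptide, was present in 73 of the 74 chosen cells. It lay at 1391, 1352 and 2273 CPM in the chosen cells of mice 1, 2 and 3 against 51.8, 62.4 and 76.7 CPM in other cells, without overlap (log2 difference 4.49 ± 0.22 SE, n = 3 mice, limma adjusted p = 1.12e-06). *Calca*, the gene of the alpha form, was in 31.1% of chosen cells, at 148, 89.2 and 53.6 CPM against 7.40, 4.21 and 7.90. *Cbln2*, a secreted synaptic organiser, lay at 633, 487 and 450 CPM against 11.8, 8.72 and 10.4 (log2 difference 4.70 ± 0.23, limma adjusted p = 1.12e-06). Cells with both *Calcb* and *Cbln2* made up 83.8% of the chosen and 1.76% of the other cells.

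Receptors and channels of sensory signalling were higher as well. *P2rx2*, an ATP-gated channel, lay at 296, 330 and 250 CPM against 25.9, 27.8 and 27.5 CPM. *Htr3a*, the obligate subunit of the serotonin-gated channel, lay at 570, 316 and 450 CPM against 78.5, 93.6 and 78.8, and its partner *Htr3b* at 131, 54.9 and 113 against 14.1, 10.7 and 8.39. Both subunits were seen together in 47.3% of chosen and 5.24% of other cells. *Il13ra1*, a receptor chain for type 2 cytokines, lay at 62.7, 96.1 and 95.3 CPM against 19.2, 4.41 and 6.09 (log2 difference 2.30 ± 0.36, limma adjusted p = 0.00358).

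Several genes that often go with sensory neurons did not pass. *Calb2*, which encodes calretinin, lay at 1157, 611 and 1001 CPM in chosen and 270, 492 and 482 in other cells, without overlap but with a limma adjusted p of 0.0658. The neurofilament gene *Nefm* lay at 22.8, 89.3 and 110 CPM against 46.6, 29.96 and 40.8, and mouse 1 went the other way from the other two. The mechanosensitive channel genes *Piezo1* and *Piezo2* were found in 2 and 4 of the 74 cells. *P2rx3* and *Kcnn4* had 0 UMIs in the chosen cells, and 0 of 74 cells allows a share of cells with a UMI of up to 4.05%, which does not limit the share that express the gene. The peptide gene *Adcyap1*, at 5.70, 48.1 and 5.96 CPM against 17.0, 8.03 and 6.75, did not pass either.

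Of 34 voltage-gated and calcium-activated channel genes tested, 7 were higher and 2 lower, against 2.31% and 1.77% of all genes. The sodium channel gene *Scn11a*, which encodes a persistent sensory sodium channel, lay at 96.9, 233 and 203 CPM against 12.6, 15.2 and 15.5, and *Scn9a*, another sodium channel gene of sensory neurons, at 450, 364 and 399 against 80.0, 68.2 and 84.9. *Ano2*, a calcium-activated chloride channel, lay at 143, 165 and 149 CPM against 6.66, 3.33 and 3.95 (log2 difference 3.47 ± 0.28, limma adjusted p = 3.99e-05). The small-conductance potassium channel gene *Kcnn3* and the calcium channel genes *Cacna1b* and *Cacna2d3* were also higher. The potassium channel genes *Kcnma1* and *Kcnq3* were lower, by 0.95 and 1.32 on the log2 scale.

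Genes of motor neurons and interneurons were lower or did not pass. Of 11 inhibitory motor neuron genes tested, 6 were lower (*Nos1*, *Vip*, *Npy*, *Gch1*, *Gfra1* and *Etv1*) and 0 higher, against 1.77% and 2.31% of all genes. *Nos1*, for neuronal nitric oxide synthase, lay at 85.5, 130 and 208 CPM in chosen cells against 485, 549 and 424 in other cells (log2 difference -1.79 ± 0.27, limma adjusted p = 0.00326). Of 15 excitatory motor neuron and interneuron genes tested, 4 were lower (*Tac1*, *Penk*, *Oprk1* and *Ddc*), against 1.77% of all genes. *Tac1*, which encodes substance P, lay at 28.5, 130 and 95.3 CPM against 274, 335 and 316, and *Penk*, which encodes enkephalins, at 22.8, 13.7 and 92.3 against 195, 192 and 177. *Ddc* had 0 UMIs in the chosen cells against 5.92, 14 and 12.8 CPM in others, so no fold is given. *Gal* did not pass, at 1938, 4840 and 3875 CPM in chosen and 2322, 6293 and 3398 in other cells, with the 2 sets overlapping. These sums pool 2 unlike parts of the chosen cells, inside and outside their main cluster, which are described further below. *Gal* lay at 993, 194 and 58.2 CPM inside and at 8109, 8799 and 6524 outside. *Nos1* and *Vip* were also lower inside than outside in every mouse.

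Among 10 cholinergic genes 2 were higher, against 2.31% of all genes. *Slc18a3*, the vesicular acetylcholine transporter, lay at 200, 185 and 226 CPM against 68.8, 101 and 126 (log2 difference 1.01 ± 0.23, limma adjusted p = 0.0319), and *Ache*, acetylcholinesterase, at 319, 233 and 268 against 80.0, 76.5 and 88.7. *Chat*, the enzyme that makes acetylcholine, was at 17.1, 41.2 and 35.7 CPM in chosen and 14.1, 26.9 and 45.4 in other cells (limma adjusted p = 0.877) and was found in 16 of the 74 cells. At least 1 of *Chat*, *Slc18a3* and the choline transporter gene *Slc5a7* was found in 67 chosen cells (90.5%) and in 62.6% of other cells.

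**Figure D3:**
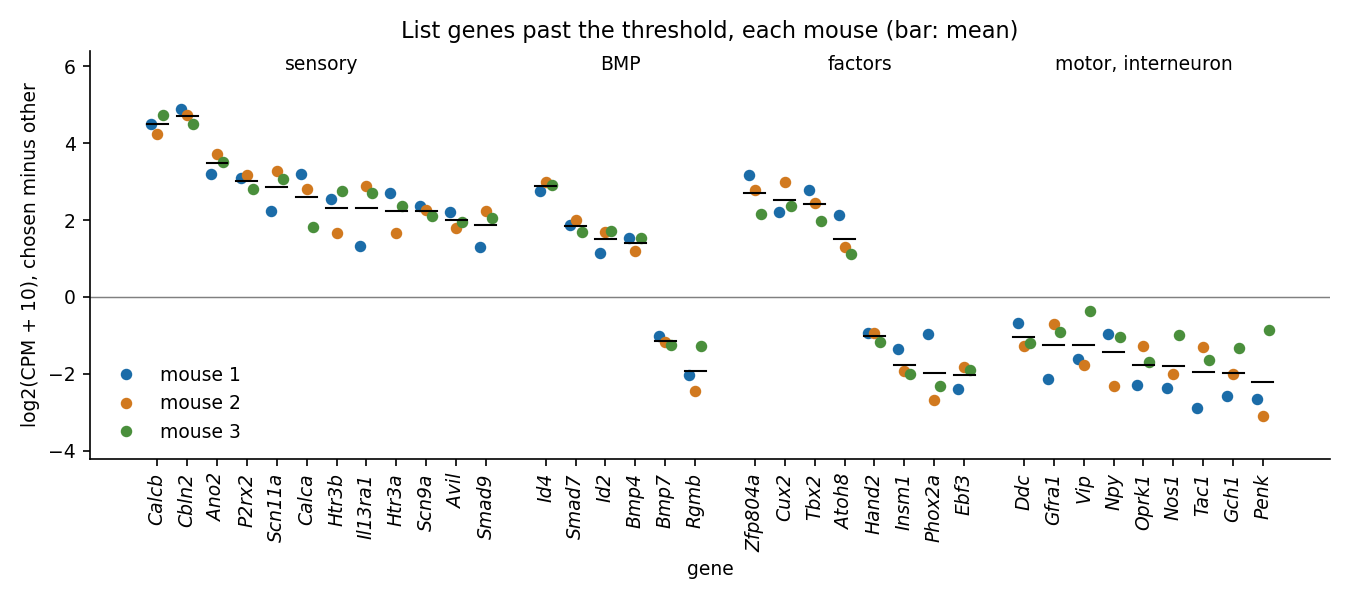
Difference in log2(CPM + 10) between chosen and other cells (vertical axis) in each of the 3 mice for list genes past the threshold, with the mean as a black bar. All points of the sensory genes, of 4 BMP genes and of 4 transcription factors lie above 0, and all points of the other genes lie below it.

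Receptors for neuromedin U were rarely seen. Neuromedin U acts on receptors encoded by *Nmur1* and *Nmur2*. *Nmur1* had 0 UMIs in chosen cells, and *Nmur2* was found in 5 of them, at 28.5, 0 and 2.98 CPM against 8.14, 0.588 and 1.48, with the first mouse apart from the others. In the list for neuromedin U and leukotrienes 0 of the 4 tested genes passed limma in either direction. Over all genes 2.31% were higher and 1.77% lower, so 0 of 4 says little about the list. Of the genes for leukotriene synthesis, *Ltc4s* and *Alox5* were found in 1 chosen cell each and *Alox5ap* in 2, and these were rare in other cells too, at 0.705%, 0% and 2.42%. *Lta4h*, whose product makes another class of leukotriene, was found in 20.3% of chosen and 25.4% of other cells.

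The endothelin list had 4 tested members, and 0 passed. With 2.31% of all genes higher and 1.77% lower, this too says little about so short a list. *Ednrb* itself, the targeted gene and an endothelin receptor, lay at 85.5, 199 and 62.5 CPM in the chosen cells of mice 1, 2 and 3 against 195, 254 and 206 in other cells (log2 difference -1.003 ± 0.26, limma adjusted p = 0.0564). Counts over the whole gene say nothing about the deleted stretch, and so cannot test the null allele. *Ednrb* was found in 40.5% of chosen and 61.9% of other cells, and in 14 of the 74 together with *Edn1*. Its values in 2 parts of the chosen cells are given further below. The processing enzyme gene *Ece1* lay at 22.8, 27.5 and 44.7 CPM against 28.1, 41.8 and 37.2. *Edn1* and *Cysltr2* are also known from endothelium, and 10 endothelial markers summed to 28.5, 34.3 and 38.7 CPM in chosen against 24.4, 18.3 and 16.1 in other cells, with 4 of the 10 at 0 in the chosen cells.

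Beside *Nog*, which binds BMP ligands outside the cell, 5 of 26 tested BMP genes were higher and 2 lower. Over all genes the shares were 2.31% and 1.77%. The ligand gene *Bmp4* lay at 148, 48.1 and 56.6 CPM in chosen cells against 45.2, 15.6 and 13.2. The inhibitory Smad gene *Smad7* and the receptor-activated Smad gene *Smad9* were higher by 1.85 and 1.86 on the log2 scale. *Id4*, an inhibitor of basic helix-loop-helix factors that BMP signals are known to induce, lay at 570, 364 and 343 CPM against 75.5, 37.0 and 36.7 (log2 difference 2.89 ± 0.22, limma adjusted p = 2.41e-05), and *Id2* at 331, 275 and 274 against 143, 78.8 and 76.7. *Id1* and *Id3*, 2 other genes of that family, did not pass. The ligand gene *Bmp7* had 0 UMIs in the chosen cells against 10.4, 12.3 and 13.7 CPM in others. The co-receptor gene *Rgmb* lay at 154, 117 and 262 CPM against 660, 676 and 646 and was lower by 1.91. The receptor gene *Bmpr1a* lay at 91.2, 61.8 and 56.6 CPM against 109, 55.0 and 59.4, with the 2 groups overlapping.

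Of 40 transcription factors of enteric neurons tested, 4 were higher and 8 lower, against 2.31% and 1.77% of all genes. *Zfp804a*, a zinc finger gene, lay at 336, 275 and 179 CPM in chosen against 28.1, 31.4 and 32.4 in other cells. The homeobox gene *Cux2* lay at 108, 144 and 119 CPM against 15.5, 9.596 and 15.1 (log2 difference 2.52 ± 0.28, limma adjusted p = 0.000377). The T-box gene *Tbx2* lay at 171, 192 and 146 CPM against 16.3, 26.9 and 29.6. *Atoh8*, the fourth, was found in 15 of the 74 cells. *Dlx3* was found in 8, at 28.5, 13.7 and 5.96 CPM against 3.70, 0.490 and 0.329. It met the filter of 2 CPM only through the chosen cells, so its limma adjusted p of 0.0507 is no support. The homeobox gene *Phox2a* was lower, at 57.0, 41.2 and 53.6 CPM against 120, 317 and 304. *Hand2*, *Insm1*, *Etv1*, *Satb1*, *Ebf3* and *St18* were lower as well. Of 12 immature neuron genes, *Sox11* and *Igfbpl1* were lower and *Gap43* was higher, at 2058, 934 and 1179 CPM against 930, 465 and 517.

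Among neurotrophic factor receptors, *Ntrk3*, a neurotrophin receptor, lay at 604, 721 and 474 CPM in chosen cells against 55.5, 36.7 and 34.9 (log2 difference 3.54 ± 0.23, limma adjusted p = 8.07e-06) and was present in 66 of the 74 cells. *Ngfr*, the low-affinity receptor, lay at 524, 254 and 456 CPM against 89.6, 76.2 and 66.8. *Gfra1* was lower, and *Ret* and *Gfra2* did not pass. *Kit*, better known from interstitial cells of Cajal, lay at 143, 96.1 and 92.3 CPM against 5.92, 1.96 and 9.71 and was found in 44.6% of chosen cells. *Ano1*, another gene of those interstitial cells, was found in 3 of the 74 cells. *Grin3a* was the only ionotropic glutamate receptor gene of the rule. Of the 14 others tested 0 were higher, and *Gria4* and *Grik1* were among the 3 that were lower. Beside *Cdh8*, 1 of 11 classical cadherins was higher, namely *Cdh6*, at 479, 638 and 646 CPM against 139, 145 and 151. Over all genes 2.31% were higher and 1.77% lower, so 0 of 14 and 1 of 11 higher say little about these families.

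Outside the lists, the 12 genes with the largest positive differences were *Pcdh10*, *Cpne4*, *Dgkg*, *Myl1*, *Wif1*, *Galr1*, *Krt19*, *Kcnb2*, *Adgrg6*, *Stum*, *Cntn5* and *9530059O14Rik*. *Pcdh10*, a protocadherin of cell adhesion, lay at 804, 769 and 745 CPM in the chosen cells of mice 1, 2 and 3 against 49.6, 13.8 and 21.1 in others (log2 difference 4.47 ± 0.26, limma adjusted p = 5.56e-06). *Galr1*, a galanin receptor, lay at 285, 89.2 and 149 CPM against 4.44, 3.23 and 6.58, and *Wif1*, a secreted inhibitor of Wnt ligands, at 137, 137 and 217 against 8.14, 3.62 and 3.13. *Dgkg*, a diacylglycerol kinase, *Kcnb2*, a delayed rectifier potassium channel, and *Adgrg6*, an adhesion G protein-coupled receptor, were higher by 3.74, 3.36 and 3.36 on the log2 scale. The 12 with the largest negative differences were *C130073E24Rik*, *Nfix*, *Slit2*, *Fstl5*, *Chd7*, *Ndufa4l2*, *Hmx2*, *Cox8b*, *Plce1*, *Epb41l4a*, *Bglap* and *Chodl*. *Nfix*, a nuclear factor I gene, lay at 120, 75.5 and 146 CPM against 515, 630 and 612, and the axon guidance ligand gene *Slit2* at 0, 34.3 and 8.94 against 80.7, 82.0 and 101. *Hmx2*, a homeobox gene, was lower by 2.02.

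The cells were also set against cholinergic neurons alone, here the 17, 185 and 162 other cells of mice 1, 2 and 3 with *Chat* above 0. This comparison shares the chosen cells with the one above. Of 13021 genes, 98 were higher in the chosen cells (0.753%) and 57 lower (0.438%) by limma. Without mouse 1, which had the fewest cells with *Chat*, 0 passed in either direction, with 646 higher and 1222 lower at an unadjusted p below 0.05. Of the sensory list 8 of 24 genes were higher (*Calcb*, *Cbln2*, *P2rx2*, *Ano2*, *Scn11a*, *Scn9a*, *Htr3a* and *Il13ra1*). *Calcb* lay at 29.0, 65.3 and 89.8 CPM in the cells with *Chat* (log2 difference 4.62 ± 0.25, limma adjusted p = 0.00093). *Tac1* lay at 449, 665 and 688 CPM there and was lower in the chosen cells by 2.86, and *Penk* at 594, 347 and 342 and was lower by 3.30. *Nos1* and *Vip*, at log2 differences of 0.14 and 0.21, did not pass against these cells, nor did *Slc18a3* at 0.20. *Tbx3*, a T-box gene, passed in this comparison, at 410, 481 and 340 CPM in chosen cells against 145, 161 and 97.0, with a log2 difference of 1.56 ± 0.21 and a limma adjusted p of 0.0183.

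**Figure D4:**
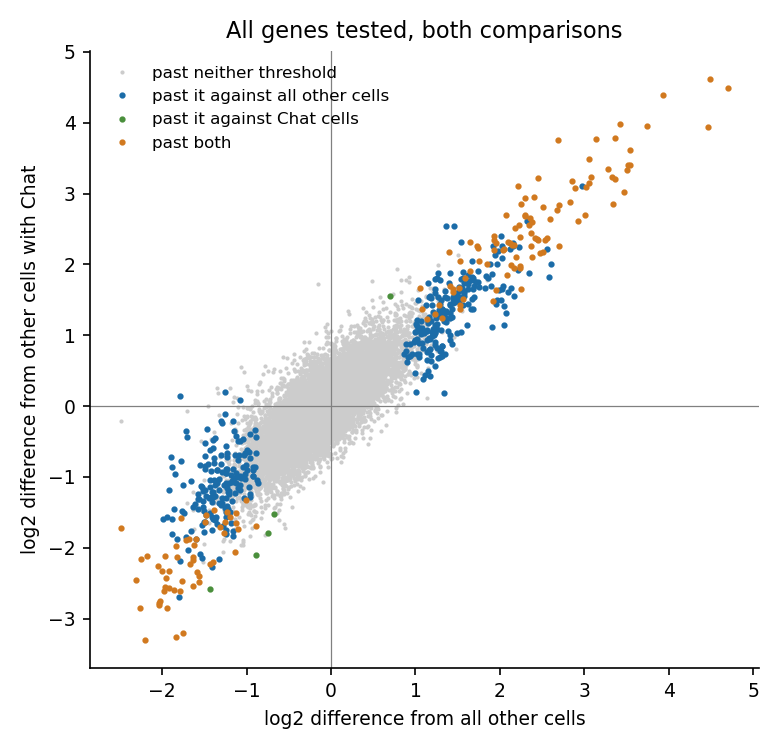
Log2 difference of the chosen cells from all other cells (horizontal axis) and from other cells with Chat (vertical axis) for the genes tested in both, coloured by which adjusted p was below 0.05. The 2 axes share the chosen cells. Calcb and Cbln2 lie farthest to the upper right, at 4.49 and 4.70 on the first axis and 4.62 and 4.49 on the second.

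The label of a neuron was checked against markers of neurons and of other cell types. The 10 neuronal markers summed to 13215, 9611 and 10124 CPM in the chosen cells against 6617, 6736 and 6330 in others, without overlap. *Elavl4* and *Tubb3* were each found in 73 of the 74 cells. *Prph*, which encodes peripherin, was found in all 74 and was the single neuronal marker past the threshold, at 2075, 1318 and 1305 CPM against 666, 481 and 411. Glial markers summed to 416, 1600 and 995 CPM against 1776, 1423 and 1255, so mouse 2 lay above its other cells and mice 1 and 3 below theirs. Smooth muscle markers summed to 2662, 1421 and 2198 CPM against 8478, 1756 and 1147, and mouse 3 went the other way from mice 1 and 2. The 10 immune markers summed to at most 68.4 CPM in chosen cells. The glial and smooth muscle sums in 2 parts of the chosen cells are given further below.

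The 74 cells did not form a single cluster. When the cells were clustered with the 9 rule genes left out, 47 of the 74 (63.5%) fell in a cluster of 66 cells, in which they made up 71.2%, and the other 27 lay elsewhere, 18 of them in a cluster of 379 cells. The 47 inside the cluster came from mice 1, 2 and 3 in numbers of 29, 7 and 11, and the 27 outside in numbers of 3, 7 and 17. Most chosen cells of mouse 1 were thus inside, and most of mouse 3 outside. The cluster of 66 cells held 47, 8 and 11 cells of mice 1, 2 and 3 and the cluster of 379 cells held 0, 221 and 158, so the split partly follows the library. The split was made after the data were seen and its values are given without a test. The summed levels of chosen cells given above pool both parts, with 3 of 32, 7 of 14 and 17 of 28 cells outside in mice 1, 2 and 3. They describe the mix and not either part.

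Cells inside the cluster had more of the rule genes, with 34 of 47 holding 5 or more against 5 of 27 outside. Not every rule gene was higher inside in every mouse, since *Layn* in mouse 2 lay at 29.8 CPM inside and 76.3 outside, and *Cdh8* in mouse 1 at 32.9 and 42.9. These values rest on few UMIs, with 7 outside cells in mouse 2 and 3 in mouse 1. *Nmu* lay at 842, 1940 and 1512 CPM inside and 172, 331 and 383 outside, and *Nog* at 302, 537 and 625 against 129, 76.3 and 85.8. *Calcb* was common to both, in 46 of 47 and in 27 of 27 cells. *Pcdh10* lay at 927, 1433 and 1490 CPM inside and 0, 203 and 227 outside, and *Ntrk3* at 684, 1268 and 829 against 85.8, 254 and 227. Both genes were higher inside in every mouse.

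Inhibitory and glial genes lay the other way. *Gal* was at 993, 194 and 58.2 CPM inside and 8109, 8799 and 6524 outside. *Cartpt*, a peptide gene, was at 26.3, 14.9 and 21.8 CPM inside and 1373, 407 and 2109 outside, and *Nos1* at 59.2, 0 and 29.1 against 257, 242 and 333. *Nos1* and *Calcb* were found together in 19 of the 27 outside cells (70.4%) and in 7 of the 47 inside (14.9%). *Ednrb* was found in 27.7% of the inside and 63.0% of the outside cells, against 61.9% of all unchosen cells. It lay at 85.5, 14.9 and 14.5 CPM inside and 85.8, 356 and 95.9 outside. The outside value of mouse 1 comes from 3 cells and rests on very few UMIs. It cannot tell whether the level was split in that mouse. Glial markers summed to 283, 179 and 334 CPM inside against 1287, 2810 and 1453 outside, and smooth muscle markers to 1446, 612 and 429 against 10597, 2111 and 3426. The outside cells also had the larger median number of UMIs, 9770 against 5683. In the 361 unchosen cells of the cluster that held 18 of them, *Gal* lay at 18925 and 10024 CPM in mice 2 and 3 and *Calcb* at 177 and 215. The part of RNA from other cells in the rule genes of these 27 cells was not tested. The 19 cells of the cluster that the rule did not choose, 18 of them from mouse 1, held *Calcb* in 73.7% and *Ntrk3* in 78.9% of cells but *Nmu* in 0, and their median of 4056 UMIs was lower than that of the chosen cells inside.

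**Figure D5:**
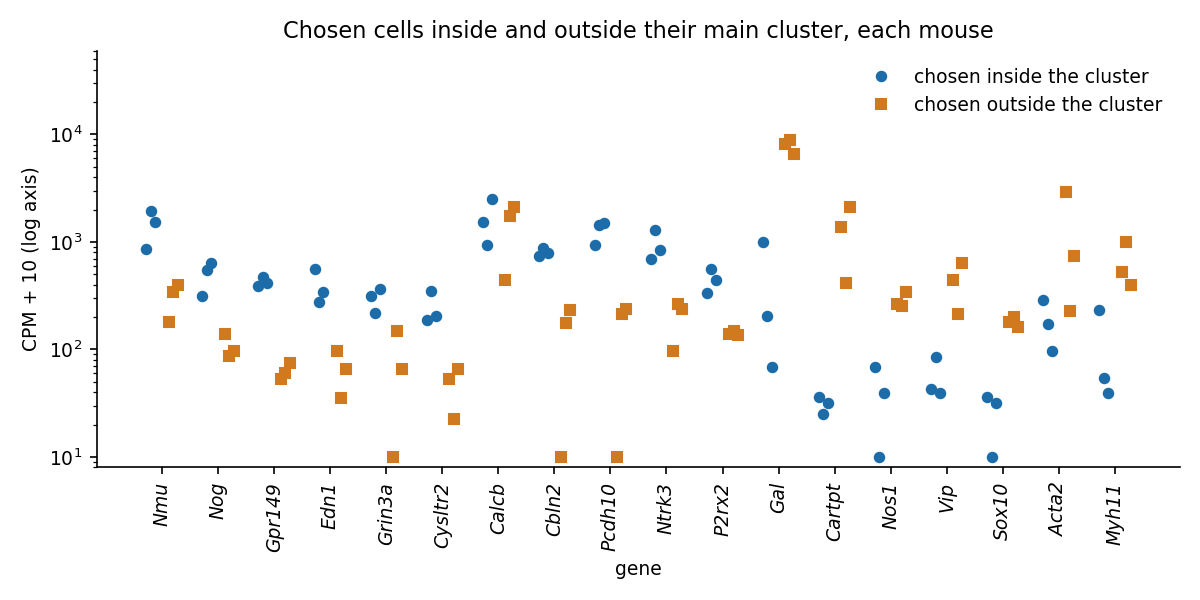
Levels of 18 genes (CPM + 10, log axis) in the chosen cells inside (circles, 47 cells) and outside (squares, 27 cells) the cluster that held most of them, 1 point per mouse. The 6 rule genes drawn, Cbln2, Pcdh10 and Ntrk3 lie higher inside, Gal, Cartpt, Nos1, Vip and the glial gene Sox10 lie higher outside, and Calcb overlaps.

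Peptides of single cells shaped a few sums. *Sst*, which encodes somatostatin, lay at 1160 CPM in the chosen cells of mouse 2, where 1 cell held 146 of the 169 UMIs. *Grp*, which encodes gastrin-releasing peptide, lay at 11.4, 302 and 891 CPM in chosen cells against 77.0, 139 and 198 in others, and 1 cell of mouse 3 held 166 of the 299 UMIs of that mouse. Neither gene passed.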

How the data were processed

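The authors counted reads against mm10 with Cell Ranger (submitters' processing notes; the version is not given in the sources used here), kept cells with 1500 to 5000 genes and under 12.5% mitochondrial genes, removed genes they held to be confounding and deposited natural log values, ln(1 + UMIs per 10000 UMIs of the cell), for 33353 genes in 2060 cells. Whole UMIs were recovered from them: 100% of the values came out whole within 1e-06. Cell totals run from 2140 UMIs. In the sums over chosen cells, 1 UMI equals 5.70, 6.87 and 2.98 CPM in mice 1, 2 and 3.

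The rule, the gene lists and the comparisons were chosen with earlier results of these data known. Cells are not replicates, so UMIs were summed per mouse (n = 3) and log2(CPM + 10) was fitted with limma 3.58.1 (trend, mouse as a block) in R 4.3.3 for genes of at least 2 CPM, leaving out the 9 rule genes and, against cells with *Chat*, *Chat*. A linear model on the log scale was used throughout, and no count model was run on the recovered UMIs. The block pairs chosen and other cells of the same animal. The level for the filter was averaged over the mice and taken over all cells, the chosen cells included. A gene rare elsewhere could thus enter through the chosen cells, and the higher genes that did so were not counted. Genes were named if they were rule genes, members of a list, or among the 12 largest differences per direction outside the lists. Clusters came from Seurat 5.3.0 (2000 variable genes, 20 components, resolution 0.5, rule genes left out), and were used for description. The smooth muscle-like cluster was named by 10 markers, found on average in 94.8% of its cells. Scrublet (scanpy 1.11.5) marked doublets, which were kept. Fits were tested on simulated data. Alternatives covered the pseudocount, filter, block, depth, rule, comparison cells, doublets and each mouse left out. Some members of the lists are not reported here.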

Additional observations from a re-analysis of the deposited data

How the results depend on the processing

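Counts of genes higher and lower than in all other cells (301 and 231) moved with several settings, and fell to 0 and 0 without mouse 1. They were 151 and 58 with a pseudocount of 1 CPM, 17 and 0 without a filter (limma, 2187 lower at an unadjusted p below 0.05), 49 and 10 after thinning to 3000 UMIs, and 23 and 6 against the 177 other cells with few glial and smooth muscle markers. In that last setting *Foxd3*, lower by 1.39 in the main comparison, turned to a log2 difference of 0.76. *Foxd3* is itself among the glial markers that limited the other cells, while all chosen cells were kept. Its turn was thus built into that choice and is not a result. The mouse as a replicate block mattered for the lower genes: without it 204 were higher and 96 lower. A rule of at least 2 genes gave 91 lower genes. Against cells with *Chat* (98 and 57), the counts were 19 and 2 with a pseudocount of 1 CPM, 148 and 105 with a filter of 10 CPM, and 0 and 0 without a filter (limma, 724 and 790 unadjusted). Leaving out 1 mouse gave 0 to 314 higher and 0 to 341 lower genes against all other cells, and 0 to 121 and 0 to 71 against cells with *Chat*, with 0 in each case without mouse 1 and 36 lower genes without mouse 2 in the second comparison. The cause of the shifts in these counts was not tested. The mean share of chosen cells ran from 2.52% with 2 UMIs per gene to 8.40% among cells with few glial and smooth muscle markers, and from 2.80% to 6.65% with 1 mouse left out. The share of chosen cells in 1 cluster was 63.5% at resolution 1.0 and 66.2% with 30 components, but with 30 components that cluster held 100 cells and the chosen cells made up 49% of it against 71.2%. With 14 chosen cells in mouse 2, genes at a few CPM rest on a few UMIs, and their absence was not detectable at this depth.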
